A study of Mus musculus with 4 samples.

Results

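The transcription factors followed here act when endocardial cells turn into mesenchyme: Snai1, Snai2, Twist1, Zeb1, Zeb2, Sox9, Msx1, Msx2, Prrx2 and Tbx20. They were chosen by name, with earlier results of these data known, as 10 of the 27998 genes counted in each library. Their levels were read in 4 classes of cardiac cells set by 11 other genes. A cell was endocardial when its UMIs (unique molecular identifiers, each 1 captured transcript) for Npr3 and Tmem108 outnumbered those for Fabp4, Cldn5 and Aplnr and it held at least 1 UMI of the pan-endothelial genes Pecam1, Cdh5 or Egfl7. A valve cell held 2 or more UMIs of Cldn11, Enpp2 and Aqp8. A coronary cell held 2 or more UMIs of Fabp4, Cldn5 and Aplnr and more of these than of Npr3 and Tmem108. A non-endothelial cell held no UMI of the 3 pan-endothelial genes, and those past the valve or coronary limit were left out.

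The study profiled single cells of C57Bl6J mouse hearts, sorted as CD31-positive and CD45-negative, the surface profile of endothelial cells without blood leukocytes. Each stage was 1 droplet library of pooled animals: 37 embryos at embryonic day 12 (E12), 48 embryos at E15, 21 pups at postnatal day 2 (P2) and 6 adults at 8 weeks. The labels name no transgene or treatment, and all 4 libraries came from sorted cells that had been frozen. Dissociation was not the same throughout, since P2 and adult hearts were first digested with collagenase II, adult tissue went through red cell lysis, embryonic cells through a dead cell removal kit and the later cells through a second sort for live cells.

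With 1 library per stage there was no replicate and no test, so stage, library, dissociation and depth cannot be told apart. Levels are given as CPM, the UMIs of a gene per 1000000 UMIs of all genes in a class, with exact Poisson 95% intervals, and ratios with exact conditional binomial 95% intervals. All these intervals cover counting error only. A gene was counted as higher or lower when its CPM ratio was at least 2 or at most 0.5 with 20 or more UMIs over both sides, and classes under 30 cells were not compared. The libraries held 5732, 6062, 5884 and 4242 cells from the youngest to the oldest stage, with a median of 1241, 1013, 4532 and 1510 UMIs a cell. At E12, where all 737280 barcodes were listed, the 5732 with the most UMIs were taken as cells. Pairs of libraries shared 25 to 60 cell barcodes, against 33.0 to 48.4 expected from chance draws of the same barcodes.

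Endocardial-to-mesenchymal transition takes place in the endocardium over the atrioventricular canal and outflow tract, where cells loosen their junctions, enter the cardiac jelly and build the cushions that become valves and septa. Bone morphogenetic protein and transforming growth factor β signals from the myocardium, with Notch in the endocardium, switch it on. Snai1, Snai2, Zeb1 and Zeb2 are zinc finger repressors that bind E-boxes, the motif CANNTG, and silence junction genes such as that for VE-cadherin. Twist1 is a basic helix-loop-helix factor, Sox9 a high mobility group factor of cushion mesenchyme and cartilage, and Msx1, Msx2 and Prrx2 are homeodomain factors. Tbx20 is a T-box factor of endocardium, myocardium and cushion.

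The promoters of 4 members are shown because the repressors of the group bind the E-box form CAGGTG, read as CACCTG on the other strand. Each is the 250 bases before the RefSeq start, on the gene's own strand in GRCm38.p6, in lower case with any CANNTG in capitals.

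Snai1: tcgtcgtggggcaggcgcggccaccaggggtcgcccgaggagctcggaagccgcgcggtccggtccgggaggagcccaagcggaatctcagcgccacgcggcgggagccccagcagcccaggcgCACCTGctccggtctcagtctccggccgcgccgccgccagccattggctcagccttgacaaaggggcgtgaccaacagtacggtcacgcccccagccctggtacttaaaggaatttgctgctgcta

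Msx1: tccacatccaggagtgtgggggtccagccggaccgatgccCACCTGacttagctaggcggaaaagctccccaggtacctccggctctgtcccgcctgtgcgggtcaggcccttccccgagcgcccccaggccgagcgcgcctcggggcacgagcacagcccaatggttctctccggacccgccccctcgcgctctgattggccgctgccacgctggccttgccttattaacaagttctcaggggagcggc

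Twist1: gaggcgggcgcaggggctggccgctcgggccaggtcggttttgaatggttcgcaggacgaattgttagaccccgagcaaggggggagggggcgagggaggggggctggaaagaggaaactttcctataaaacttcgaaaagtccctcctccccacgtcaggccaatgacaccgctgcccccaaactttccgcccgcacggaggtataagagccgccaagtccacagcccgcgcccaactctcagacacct

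Tbx20: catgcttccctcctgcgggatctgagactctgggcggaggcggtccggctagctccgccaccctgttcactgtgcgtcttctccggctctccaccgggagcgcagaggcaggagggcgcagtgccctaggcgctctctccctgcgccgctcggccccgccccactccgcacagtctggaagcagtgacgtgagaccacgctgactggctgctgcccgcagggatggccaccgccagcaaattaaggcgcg

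The Snai1 window lies at chr2:167537945-167538194 on the plus strand, and its one E-box, CACCTG, starts 126 bases before the RefSeq start. The Msx1 window lies at chr5:37824586-37824835 on the minus strand, with CACCTG starting 210 bases before the RefSeq start. The windows of Twist1 (chr12:33957421-33957670, plus strand) and Tbx20 (chr9:24774304-24774553, minus strand) hold none of these letters. None of the 4 windows overlaps an annotated exon. In both strands of 32851 RefSeq promoter windows of 250 bases, 66.2% held CANNTG and 17.2% held CAGGTG or CACCTG, the second being a form of the first. Of the members, 7 had an entry, and CACCTG or CAGGTG stood in 2 of them. Snai2, Sox9 and Zeb1 had no entry.

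The classes held 1117 endocardial, 106 coronary and 2979 non-endothelial cells at E12, and 1561, 1060 and 1670 at E15. At P2 there were 937 endocardial, 427 valve and 4350 coronary cells but only 2 non-endothelial cells. The adult library held 69 endocardial, 3962 coronary and 32 non-endothelial cells. Valve cells numbered 12 at E12, 49 at E15 and 21 in the adult. Because the rules count UMIs, class size moved with depth. Thinned to 500 UMIs a cell, the P2 library would hold 554 non-endothelial cells, of which 2 were non-endothelial by all their UMIs. The stages still differed when thinned: non-endothelial cells made up 71.9% of the E12 library, 46.1% of E15, 9.42% of P2 and 3.11% of the adult one. The part of depth in the class sizes of the stages was not tested. The 4 other endothelial markers Kdr, Tie1, Emcn and Esam summed to 894 CPM in endocardial and 212 CPM in non-endothelial cells at E12, and to 1227 and 563 CPM at E15. The 6 mesenchymal markers, led by the collagen genes, summed to 635 CPM in endocardial and 2344 CPM in non-endothelial cells at E12, and to 712 and 4511 CPM at E15. All 4 endothelial and all 6 mesenchymal markers were found in both classes, and the classes go by their rule.

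In the embryonic hearts most members were higher in the non-endothelial cells. At E12, 8 of the 10 members were at least 2-fold higher there than in endocardial cells and none was 2-fold lower, where 10.0% of 10720 genes were higher and 5.35% lower. Their median log2 ratio was 1.83, against 0.02 over all genes. At E15, 7 of 9 members with enough UMIs were higher and none lower, against 7.08% and 2.94% of 9678 genes, with a median log2 ratio of 2.02 against -0.03. Zeb1 and Zeb2 were the members that stayed within 2-fold at both stages.

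**Figure D1:**
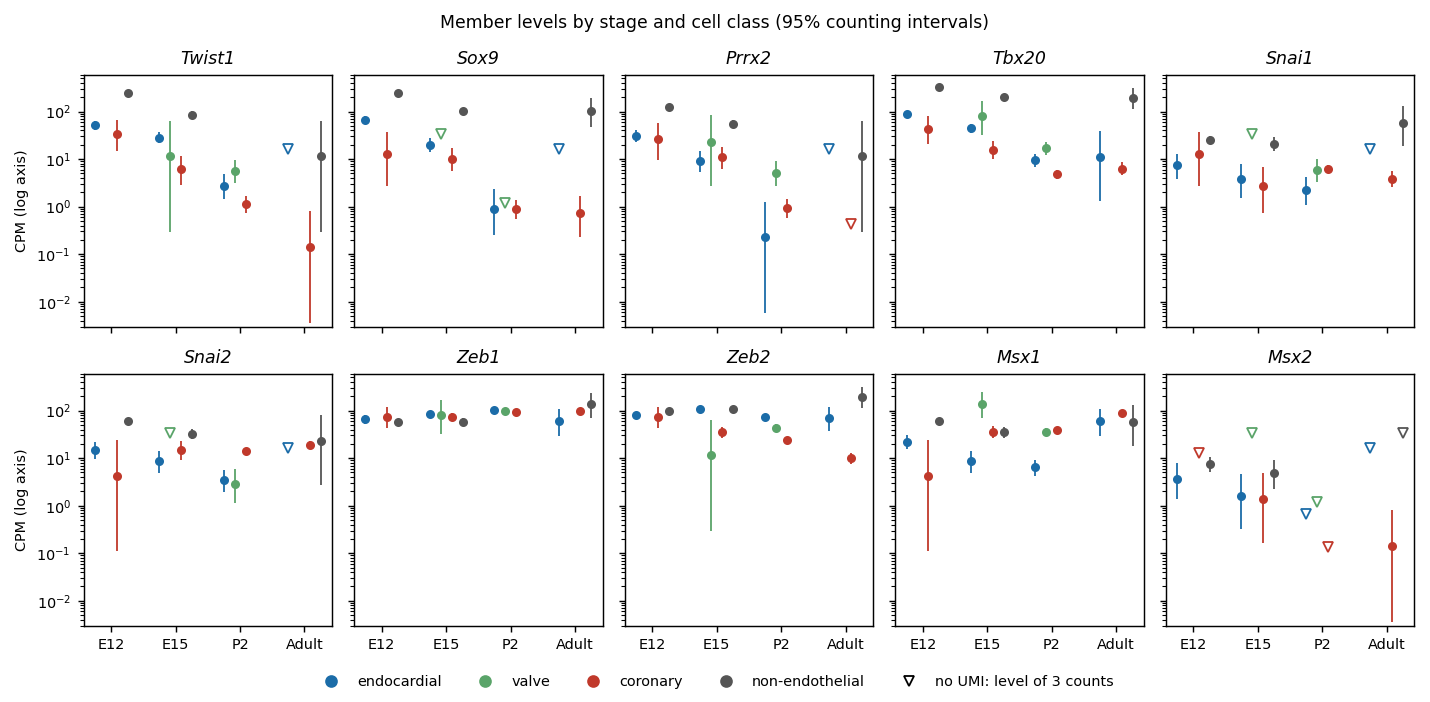
Level of each member in CPM (log axis) by stage, coloured by cell class, with 95% counting intervals. Classes under 30 cells are left out and open triangles mark the level of 3 counts where no UMI was seen. Twist1, Sox9 and Prrx2 are low in every P2 class, whereas Zeb1 stays between 58.1 and 136 CPM.

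Twist1, known as a driver of cushion mesenchyme growth and migration, had the highest ratio of the members at E12. Its level was 240.1 CPM in non-endothelial cells at E12 (95% interval 225 to 256, 990 UMIs) and 51.8 CPM in endocardial cells (41.3 to 64.1, 84 UMIs), a ratio of 4.64 (3.71 to 5.86). At E15 it was 86.3 CPM against 28.4 CPM, a ratio of 3.04 (2.21 to 4.23), the lowest of the 7 that were higher at that stage. Coronary cells held 34.5 CPM at E12 on 8 UMIs and 6.12 CPM at E15 on 9. Without its top cell, the coronary-to-endocardial ratio of Twist1 at E12 went from 0.665 to 0.270. After birth Twist1 was low in endothelium: 2.74 CPM in endocardial, 5.61 CPM in valve and 1.13 CPM in coronary cells at P2, and 1 UMI in 3962 adult coronary cells.

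Sox9, which directs cushion cells toward matrix production, was at 248 CPM in non-endothelial and 67.8 CPM in endocardial cells at E12, a ratio of 3.65 (3.0 to 4.49). At E15 the levels were 105 and 19.8 CPM, a ratio of 5.28 (3.70 to 7.73). Coronary cells held less, 12.9 CPM at E12 on 3 UMIs, all of them in 1 cell, and 10.2 CPM at E15. At P2 Sox9 was at 0.912 CPM in endocardial cells, with 4 UMIs in 937 cells, and no UMI was found in 427 valve cells, where 3 counts would be 1.20 CPM. In the adult, 9 UMIs in 32 non-endothelial cells gave 102 CPM, and 69 endocardial cells held none.

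Prrx2 and Tbx20 showed the same gap in the embryo. Prrx2, a homeodomain factor of embryonic mesenchyme, was at 123 CPM in non-endothelial and 30.8 CPM in endocardial cells at E12 (ratio 3.98, 2.97 to 5.44), and at 54.3 and 9.11 CPM at E15 (ratio 5.96, 3.54 to 10.6). Tbx20 was at 327 and 88.8 CPM at E12 (ratio 3.69, 3.10 to 4.41) and at 198 and 45 CPM at E15 (ratio 4.40, 3.46 to 5.65). In the adult, Tbx20 was at 193 CPM in the 32 non-endothelial cells on 17 UMIs, and at 10.8 CPM in endocardial cells on 2 UMIs, too few in all to be called.

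The Snail genes showed the gap on fewer UMIs. Snai2 was at 60.6 CPM in non-endothelial and 14.8 CPM in endocardial cells at E12 (ratio 4.10, 2.69 to 6.52), and at 32.6 and 8.57 CPM at E15 (ratio 3.80, 2.16 to 7.06). With classes set on thinned cells the E15 ratio was 16.3. Snai1, which acts early in the transition, was at 25.5 CPM against 7.40 CPM at E12 (ratio 3.44, 1.89 to 6.87) and at 21.2 against 3.75 CPM at E15 (ratio 5.64, 2.50 to 14.9). The endocardial levels of Snai1 rested on 12 UMIs at E12 and 7 at E15.

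The Zeb genes, which are relatives with zinc fingers at both ends, did not share the gap. Zeb1 was at 58.2 CPM in non-endothelial and 65.4 CPM in endocardial cells at E12 (ratio 0.891, 0.706 to 1.13), and at 58.1 and 85.2 CPM at E15 (ratio 0.681, 0.528 to 0.876). Zeb2 was at 96.3 and 79.5 CPM at E12 (ratio 1.21, 0.990 to 1.49) and at 107 and 109 CPM at E15 (ratio 0.983, 0.804 to 1.20). These intervals lie within 2-fold on either side of equal levels. In the adult, both passed 2-fold in the 32 non-endothelial cells, Zeb1 at 136 against 59.6 CPM (ratio 2.29, 0.924 to 5.72) and Zeb2 at 193 against 70.4 CPM (ratio 2.74, 1.25 to 6.14). They were the 2 members with enough UMIs there, and 11.4% of 2359 genes were higher and 21.2% lower. Those 32 cells held the 6 mesenchymal markers at 15690 CPM against 2989 CPM in endocardial cells. The 3 smooth muscle markers were at 3727 against 5.42 CPM and the 5 mural markers at 1602 against 32.5 CPM. The 5 macrophage markers were at 943 against 5.42 CPM. Of the 32 cells, 20 had 3 or more UMIs of Col1a1, Col1a2 and Col3a1. These 20 held 9 of the 12 Zeb1 and 12 of the 17 Zeb2 UMIs. The part of these cell types was not tested.

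Msx1 and Msx2, targets of bone morphogenetic protein signals in the cushions, both stood higher in non-endothelial cells at E12. Msx1 was at 59.2 CPM in non-endothelial and 22.2 CPM in endocardial cells at E12 (ratio 2.67, 1.87 to 3.90), and at 34.7 and 8.57 CPM at E15 (ratio 4.05, 2.31 to 7.51). Msx2 had 52 UMIs over all classes and stages. Its ratio of 2.03 at E12 (0.835 to 5.96) came from 31 UMIs against 6, and its 12 UMIs at E15 were too few to compare.

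**Figure D2:**
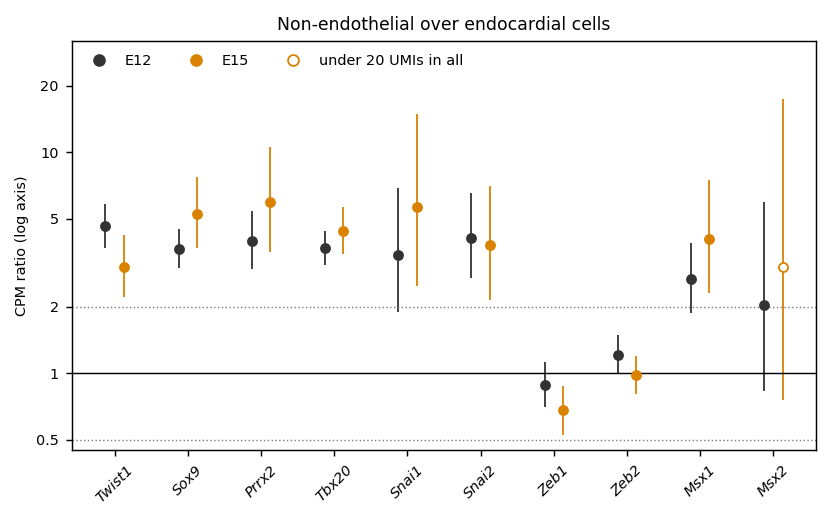
CPM ratio of non-endothelial over endocardial cells (log axis) for each member at E12 and E15, with 95% counting intervals and dotted lines at 2 and 0.5. The ratios of Zeb1 and Zeb2 lie between 0.681 and 1.21, and those of the other 8 members lie between 2.03 and 5.96.

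Genes of the same pathway were taken from fixed lists for the same comparison, in which 10.0% of all genes compared were higher and 5.35% lower at E12, and 7.08% higher and 2.94% lower at E15. Of 15 mesenchymal output genes, 10 were higher in non-endothelial than in endocardial cells and none was lower at E12, with the same counts at E15. Collagen Col1a1 was at 598 against 117 CPM at E12 (ratio 5.13) and at 1353 against 159 CPM at E15 (ratio 8.50). Of 18 other cushion and endocardial transcription factors, 8 were higher and none lower at E12, and 7 of 16 were higher and none lower at E15. Meox1, a homeodomain factor, was at 124 against 19.7 CPM at E12 (ratio 6.27), and Prrx1, the close relative of Prrx2, at 75.2 against 19.1 CPM (ratio 3.93).

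Of 9 signals compared at E12, 6 were higher and 1 lower, among them Bmp4 at 97.3 against 14.2 CPM (ratio 6.86) and Tgfb2 at 128 against 44.4 CPM (ratio 2.88). At E15, 3 of 8 signals were higher and 1, the Notch ligand Dll4, was lower. Of 18 receptors and mediators, none was higher, 4 were lower and 14 were neither at E12, and 1 was lower and 17 were neither at E15. The E12 set was Eng, Tgfbr2, Tgfbr3 and Acvrl1, receptors and co-receptors for transforming growth factor β and its relatives, and Acvrl1 rested on 20 UMIs. Eng is also on the endothelial list. Of 9 endothelial genes, 8 were lower at E12 and 4 at E15 and none was higher, with the endocardial glycoprotein Emcn at 78.6 against 400 CPM at E12. Absence of other endothelial transcripts was part of the rule, so these lower endothelial genes are a description of the class.

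The non-endothelial cells were divided by their own markers to see which of them held the members. At E12, 1191 of 2979 (40.0%) had 3 or more UMIs of Col1a1, Col1a2 and Col3a1, 19 passed a macrophage rule, 34 a hemoglobin rule and 7 a troponin rule, 8 passed several, and 1720 none. At E15, 559 of 1670 (33.5%) were collagen-positive and 1066 passed no rule. The cells that passed no rule were shallower, with a median of 1102 against 1406 UMIs at E12 and 830.5 against 1300 at E15. The whole class also held the endocardial rule genes Npr3 and Tmem108, at 198 CPM at E12 and 502 CPM at E15. Endocardial cells held them at 1118 and 1487 CPM. The part of endocardial cells without a captured pan-endothelial UMI was not tested. The collagen-positive cells of E12 held Twist1 at 303 CPM, Sox9 at 301 CPM, Prrx2 at 148 CPM and Tbx20 at 402 CPM. The cells that passed no rule held 196, 211, 104 and 272 CPM of the same genes, and these may still hold 1 or 2 collagen UMIs each. At E15 the gap was wider: Twist1 was at 158 CPM in collagen-positive cells and 30.0 CPM in the cells that passed no rule, Sox9 at 174 and 48.6 CPM, Prrx2 at 95 and 21.7 CPM, and Tbx20 at 340 and 85.8 CPM.

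Zeb1 showed no such gap, with 57.9 and 61.3 CPM at E12 and 53.6 and 64.1 CPM at E15. Zeb2 was also found in the macrophage cells, with 7 UMIs in 19 cells at E12 (156 CPM, 62.7 to 321). At E15 it had 9 UMIs in 27 cells (324 CPM, 148 to 614). Zeb1, Twist1, Snai1 and Msx1 had no UMI at either stage, where 3 counts would be 66.9 CPM at E12 and 108 CPM at E15. In the whole non-endothelial class these members, except Twist1 at E12, lay below those levels, so the zeros do not show absence. At 500 UMIs a cell, Sox9 was found in 11.9% of 1187 collagen-positive cells at E12 (29.4% of 1191 unthinned) and in 0 of 34 hemoglobin-rule cells, which allows a share of up to 8.82%. Twist1 was found in 11.3% and Tbx20 in 16.3% of the collagen-positive cells, and neither was found in the 34 hemoglobin-rule cells at that depth, although all UMIs gave 1 and 3 positive cells. The median depth was 1406 UMIs in the collagen-positive and 1864.5 UMIs in the hemoglobin-rule cells.

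Barcodes of the E12 library with 1 to 100 UMIs, which hold mostly free RNA, carried Twist1 at 116 CPM, Sox9 at 133 CPM and Tbx20 at 284 CPM, all above the endocardial levels. These barcodes held a mean of 4.65 UMIs, against 1452 in an endocardial cell. The UMIs of 1 such barcode per endocardial cell would add 0.373 CPM of Twist1, 0.426 CPM of Sox9 and 0.909 CPM of Tbx20. The part of free RNA in the endocardial levels was not tested.

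The same collagen rule was applied to the endocardial cells, since some of them also held collagen UMIs. At E12, 86 of 1117 (7.70%, 0.995% at 500 UMIs a cell) did, and at E15, 77 of 1561 (4.93%, 1.00%). These few cells held a large part of the UMIs of several members. Of Zeb1 they held 13 of 106 UMIs and of Zeb2 22 of 129 at E12. At E12, 43 of 84 Twist1 UMIs, 56 of 110 Sox9 UMIs, 30 of 50 Prrx2 UMIs and 61 of 144 Tbx20 UMIs of the endocardial class came from them. Twist1 was at 187 CPM in collagen-positive and 29.4 CPM in the remaining endocardial cells (ratio 6.36, 4.05 to 10.0), Sox9 at 244 and 38.8 CPM (ratio 6.29, 4.25 to 9.32), and Prrx2 at 131 and 14.4 CPM (ratio 9.10, 5.00 to 16.9).

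At E15 the division was sharper still. Twist1 was at 188 CPM in the collagen-positive and 10.2 CPM in the remaining endocardial cells (ratio 18.5, 10.1 to 35.2), Sox9 at 157 and 4.18 CPM (ratio 37.5, 16.1 to 101), and Tbx20 at 287 and 17.3 CPM (ratio 16.6, 10.4 to 27.0). Zeb1 and Zeb2 again did not divide: at E12 they were at 56.7 and 95.9 CPM in the collagen-positive and at 66.8 and 76.8 CPM in the remaining cells, and at E15 at 57.5 and 88.8 CPM against 88.4 and 111 CPM.

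The collagen-positive endocardial cells were also deeper and more often marked as doublets, that is, droplets with 2 cells. Their median was 2420 UMIs against 1244 at E12 and 2336 against 1015.5 at E15. The doublet score marked 40.7% of them against 4.85% of the remaining cells at E12, and 42.9% against 7.88% at E15. With the methods' limits on depth and doublets removed, the same 8 members at E12 and the same 7 at E15 were higher in non-endothelial cells, at larger ratios. At E12 the ratios became 8.85 for Twist1, 6.59 for Sox9, 5.99 for Prrx2 and 4.19 for Msx1, and at E15 they became 6.02 for Twist1, 13.0 for Sox9, 26.3 for Prrx2 and 7.35 for Tbx20. Whether cells with both sets of genes were single cells was not tested.

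**Figure D3:**
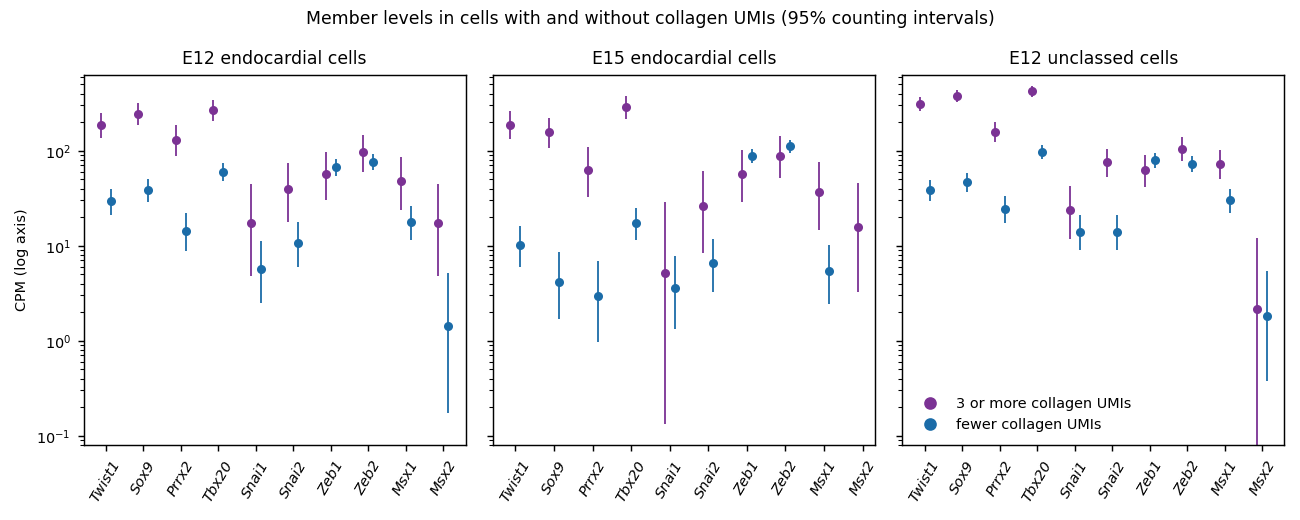
Member levels in CPM (log axis, 95% counting intervals) in cells with 3 or more collagen UMIs (purple) and in the remaining cells (blue), for endocardial cells at E12 and E15 and unclassed cells at E12. No point is drawn where no UMI was seen. Twist1, Sox9, Prrx2 and Tbx20 are higher in the purple cells of each panel, while Zeb1 and Zeb2 lie close together.

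Cells that carried several members at once were most frequent in the non-endothelial class at the stages where it was compared. With each cell thinned to 500 UMIs, 37.4% of 2944 non-endothelial cells at E12 held at least 1 member (95% interval 35.6 to 39.1) and 10.4% held 2 or more, with up to 5 in 1 cell. Of 1106 endocardial cells, 16.3% held at least 1 (14.1 to 18.6) and 1.90% held 2 or more. At E15 the shares with at least 1 member were 22.6% of non-endothelial, 13.2% of endocardial and 9.25% of coronary cells, and 22.4% of the 49 valve cells (11 cells, 11.8 to 36.6). Cells with 2 or more members made up 4.80% of the non-endothelial and 0.60% of the endocardial cells. At P2 the endocardial, valve and coronary shares with at least 1 member were 9.50%, 11% and 8.74%, and cells with 2 or more were 0.320%, 0.234% and 0.253%. In the adult, 13 of 32 non-endothelial cells held at least 1 member, as did 10.3% of coronary and 7.25% of endocardial cells.

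**Figure D4:**
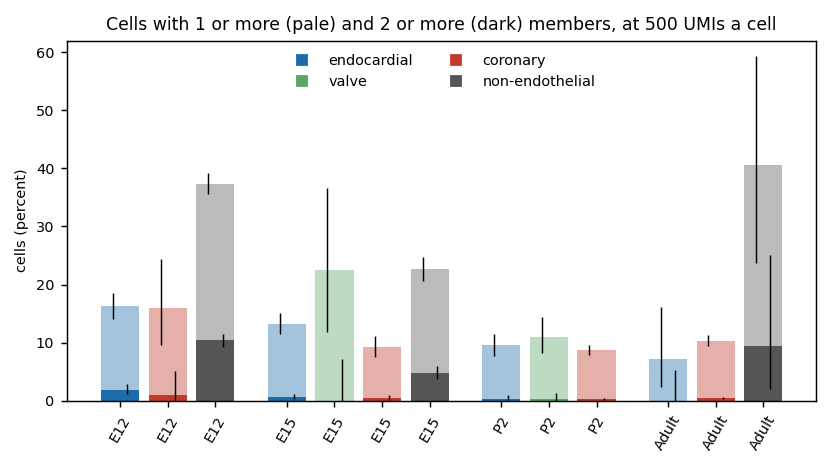
Share of cells (percent) with 1 or more (pale bars) and 2 or more (dark bars) members at 500 UMIs a cell, by stage and class, with exact binomial 95% intervals. Non-endothelial cells are at 37.4% and 10.4% at E12, and the 32 of the adult at 40.6% and 9.38%. No endothelial class passes 1.90% for 2 or more members.

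Endocardial levels of several members were lower at E15 than at E12, and at P2 than at E15. Between E12 and E15, 3 of 8 members were at least 2-fold lower and none higher, against 3.54% of 9349 genes lower and 3.88% higher. Sox9 was at 0.292 times its E12 level (0.196 to 0.428), Prrx2 at 0.295 (0.160 to 0.521) and Msx1 at 0.386 (0.200 to 0.714). Twist1 at 0.548 and Tbx20 at 0.507 stopped short of 2-fold, and Zeb1 and Zeb2 were at 1.30 and 1.37 times their E12 level. With the methods' limits and doublets removed, Snai2 and Tbx20 joined the 3 and the count was 5, with Prrx2 at 0.0965. With stricter classes Msx1 stood at 0.601 times its E12 level.

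Between E15 and P2, 4 of 7 members were lower and none higher, where 5.17% of 10564 genes were lower and 13.4% higher. Sox9 was 21.7-fold lower (7.81 to 84.0), Twist1 10.4-fold lower (5.48 to 21.3), Tbx20 4.81-fold lower (3.28 to 7.18) and Snai2 2.51-fold lower (1.16 to 5.44). Prrx2 went from 17 UMIs to 1, under the 20 needed. Zeb1 was at 1.19 and Zeb2 at 0.690 times their E15 level. With the methods' limits and doublets removed, the count was 2, with Twist1 at 0.193 and Tbx20 at 0.345 times the E15 level. Snai2 then stood at 0.618 and Sox9 had too few UMIs to compare. Sox9 rested on 4 UMIs at P2 and went from 0.046 to 0.0251 times the E15 level without its top cell. The median log2 ratio of the members was -1.33, against 0.25 over all genes.

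In the endocardial cells with fewer than 3 collagen UMIs, Twist1 was at 29.4 CPM at E12, 10.2 CPM at E15 and 1.89 CPM at P2. Sox9 was at 38.8 and 4.18 CPM in the embryo and had no UMI at P2. The median depth of these cells was 1244 UMIs at E12, 1015.5 at E15 and 4206 at P2. The same cut was therefore stricter at P2, and the stages are not compared like with like. At P2, 22.4% of the endocardial cells were collagen-positive (0.961% at 500 UMIs a cell), and the doublet score marked 0.952% of them. All 4 Sox9 UMIs of the P2 endocardial cells were in the collagen-positive ones, and Tbx20 was 3.74-fold higher there (1.93 to 7.41).

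Between P2 and the adult, 1 of 4 members was past 2-fold in either direction, against 24.3% of 9268 genes, and this was Msx1, which was higher in the adult. Msx1 was at 6.39 CPM at P2 on 28 UMIs and at 59.6 CPM in the adult on 11 UMIs in 9 of 69 cells (ratio 9.33, 4.19 to 19.3). Thinned to 500 UMIs, none of those 69 cells held Msx1. Snai1, Snai2, Twist1, Sox9, Msx2 and Prrx2 had no UMI in the adult endocardial cells, where 3 counts would be 16.2 CPM, a level above all of their P2 levels.

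In the non-endothelial cells, 3 of 10 members were at least 2-fold lower at E15 than at E12 and none was higher, against 5.29% of 10899 genes lower and 5.65% higher. These were Twist1 at 0.359 (0.302 to 0.425), Sox9 at 0.423 (0.361 to 0.494) and Prrx2 at 0.442 (0.353 to 0.549) times the E12 level. Tbx20 was at 0.605, Msx1 at 0.587 and Snai2 at 0.537. Zeb1 at 0.997 and Zeb2 at 1.11 differed little, and the collagen-positive share of the class was 40.0% at E12 and 33.5% at E15. Collagen-positive cells held Twist1 at 303 CPM at E12 and 158 CPM at E15. They held Sox9 at 301 and 174 CPM and Prrx2 at 148 and 95 CPM. Cells that passed no rule held Twist1 at 196 and 30.0 CPM, Sox9 at 211 and 48.6 CPM, and Prrx2 at 104 and 21.7 CPM. In the whole class, 5 of 9 endothelial genes were higher at E15 and none lower, against 5.65% of all genes higher. The part of class make-up in these differences was not tested.

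Several members also differed between coronary and endocardial cells. Msx1 had the largest excess of the members at E15 and P2: 36.0 CPM in coronary and 8.57 CPM in endocardial cells at E15 (ratio 4.20, 2.36 to 7.87) and 38.5 and 6.39 CPM at P2 (ratio 6.03, 4.14 to 9.13). With stricter classes the E15 ratio was 2.59, and with classes set on thinned cells 12.6. At E12 the order was the other way, 4.31 CPM on 1 UMI against 22.2 CPM. In the adult Msx1 was at 88.6 CPM in coronary cells (81.8 to 95.9, 617 UMIs) and 59.6 CPM in endocardial cells, a ratio of 1.49 (0.826 to 3.0). Within coronary cells the adult level was 2.30 times that of P2 (2.07 to 2.56). Over the 9 members compared there, the median log2 ratio of adult to P2 was -0.33, against 0.01 over 12524 genes.

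Snai2 was at 13.9 CPM in coronary and 3.42 CPM in endocardial cells at P2 (ratio 4.06, 2.43 to 7.35), and Snai1 at 6.25 and 2.28 CPM (ratio 2.74, 1.45 to 5.84). At E15 the Snai2 ratio was 1.74 (0.875 to 3.55). In the adult, Snai2 had 133 UMIs in coronary cells, or 19.1 CPM, and none in endocardial cells, where the level of 3 counts is too close to tell them apart at this depth. At 500 UMIs a cell, Snai2 was found in 0.667% of P2 coronary cells and 0.213% of P2 endocardial cells, with overlapping intervals (0.447 to 0.956 and 0.0259 to 0.769).

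Zeb2 went the other way from E15 onward. It was at 35.3 CPM in coronary and 109 CPM in endocardial cells at E15 (ratio 0.325, 0.235 to 0.442), at 23.6 and 75.0 CPM at P2 (ratio 0.314, 0.273 to 0.362), and at 9.91 and 70.4 CPM in the adult (ratio 0.141, 0.0772 to 0.278). At E12 the ratio was 0.921 (0.520 to 1.53). Thinned shares kept that order at P2, with Zeb2 in 4.70% of endocardial cells (3.43 to 6.25) and 1.26% of coronary cells (0.954 to 1.64). Zeb1 was close between the classes at every stage, with ratios of 1.12, 0.869, 0.916 and 1.67 from E12 to the adult.

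By count, 4 of 8 members at E12 were lower in coronary than in endocardial cells and none was higher, against 16.7% of 7552 genes lower and 5.03% higher. These were Snai2, Sox9, Msx1 and Tbx20, and for Snai2 and Msx1 the coronary side held 1 UMI in 106 cells. With stricter classes the Sox9 ratio went from 0.191 to 0.518. At E15, 3 of 8 (Twist1, Zeb2 and Tbx20) were lower and 1 (Msx1) higher, against 11.6% lower and 5.96% higher. At P2, 4 of 9 (Snai1, Snai2, Msx1 and Prrx2) were higher and 2 (Twist1 and Zeb2) lower, against 11.1% and 11.5% of 12377 genes. The Prrx2 ratio of 4.17 rested on 1 endocardial UMI and was 1.75 with overlapping classes. In the adult, 1 of 5 (Zeb2) was lower and none higher, against 15.8% and 13.1% of 9463 genes.

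Even in P2 coronary cells, part of the low signal sat in collagen-positive cells, which were 172 of 4350. They held 15 of 25 Twist1 UMIs, 12 of 20 Sox9 UMIs and 58 of 105 Tbx20 UMIs. Tbx20 was at 49.5 CPM in them and 2.25 CPM in the remaining coronary cells (ratio 22.0, 14.7 to 33.1). Unlike in the embryonic endocardial cells, Zeb2 was also higher in the collagen-positive cells, at 64.0 against 21.3 CPM. The interval of its ratio was 2.32 to 3.84, on 75 of 521 UMIs. Zeb1 was at 91.3 against 92.9 CPM. Msx1 was lower in the collagen-positive cells, at 13.7 against 39.9 CPM (ratio 0.343, 0.195 to 0.560). The doublet score marked 15.1% of these cells and 4.19% of the remaining ones, and the part of doublets was not tested.

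Of the pathway genes in the same P2 comparison, where 11.1% of 12377 genes were higher and 11.5% lower, 7 of 17 other transcription factors were higher in coronary cells and 8 lower, including Meox2, a homeodomain factor, at 176 against 5.02 CPM (ratio 35.1) and Id2 at 210.1 against 719 CPM (ratio 0.292). Of 14 mesenchymal output genes, 2 were higher and 9 lower, with the matrix gene Postn at 79.1 against 463 CPM. Of 18 receptors and mediators, 1 was higher and 6 lower, and of 9 signals, 2 were higher and 3 lower.

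**Figure D5:**
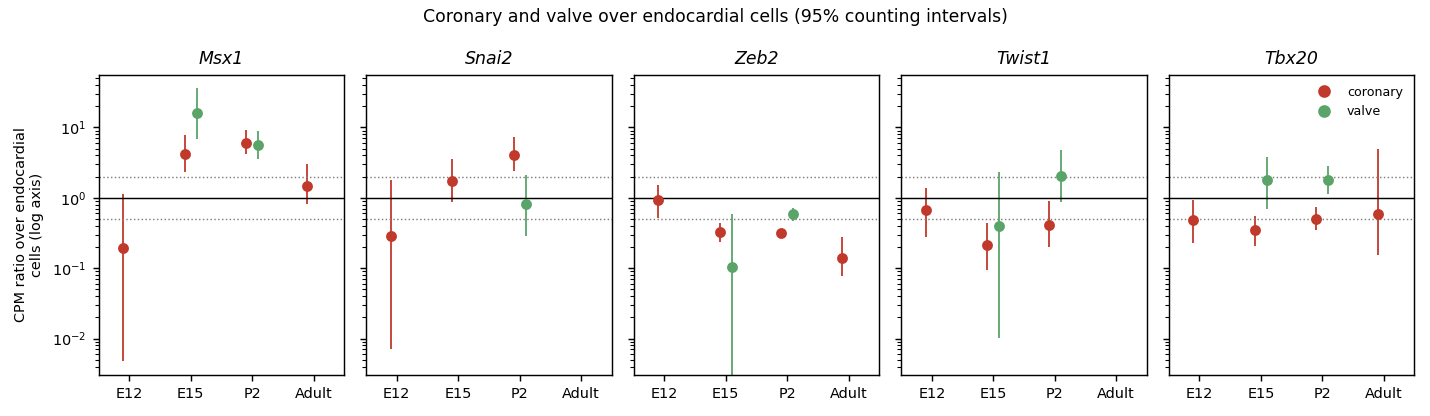
CPM ratio over endocardial cells (log axis) in coronary (red) and valve (green) cells for Msx1, Snai2, Zeb2, Twist1 and Tbx20 by stage, with 95% counting intervals and dotted lines at 2 and 0.5. No point is drawn where a side had no UMI or the class held under 30 cells. Msx1 ratios are 4.20 and 6.03 in coronary and 16.1 and 5.59 in valve cells at E15 and P2, and Zeb2 ratios are below 1.

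Valve cells, 49 at E15 and 427 at P2, held more Msx1 than endocardial cells at both stages. Of the P2 valve cells, 235 also met the coronary rule and 145 the endocardial rule, and the coronary rule genes were at 2936 CPM in valve and 390.2 CPM in endocardial cells. At E15 the coronary rule genes were at 471 and 40.2 CPM, and their part in the Msx1 values was not tested. At E15, Msx1 was at 138 CPM in valve cells (71.2 to 241, 12 UMIs in 8 cells) and 8.57 CPM in endocardial cells, a ratio of 16.1 (6.94 to 36.2). At P2 it was at 35.7 and 6.39 CPM, a ratio of 5.59 (3.62 to 8.87). Msx1 was also 3.82-fold higher in valve than in coronary cells at E15 (1.86 to 7.25), and at P2 that ratio was 0.927 (0.736 to 1.15).

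At E15, 1 of 5 members was higher in valve than in endocardial cells and 2 were lower, against 10.5% and 11.4% of 6849 genes. The lower ones were Twist1 and Zeb2, each on 1 valve UMI. At P2, 3 of 7 were higher and none lower, against 5.45% and 2.36% of 10827 genes. Beside Msx1 these were Snai1 at 6.01 against 2.28 CPM (ratio 2.64, 1.11 to 6.56) and Twist1 at 5.61 against 2.74 CPM (ratio 2.05, 0.880 to 4.85), whose ratio was 1.33 with doublets removed. Coronary cells of P2 held Snai1 at 6.25 CPM, 1.04 times the valve level (0.609 to 1.91). Tbx20 at 16.8 against 9.35 CPM (ratio 1.80, 1.14 to 2.84) and Zeb2 at 43.7 against 75.0 CPM (ratio 0.582, 0.464 to 0.725) stayed within 2-fold. Against coronary cells of the same library, valve cells held Tbx20 3.54-fold (2.41 to 5.11) and Twist1 4.96-fold (2.38 to 9.91) higher, and Snai2 4.96-fold lower (2.38 to 12.4). The 13 Prrx2 UMIs of P2 valve cells came from 3 cells, 6 of them from 1. The E15 valve cells also held the 3 cycling markers at 677 CPM, against 231 CPM in endocardial cells. The 4 lymphatic markers were at 241 against 56.3 CPM at E15 and at 299.7 against 154 CPM at P2, and the part of these differences was not tested.

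Genes most like each member were sought over the 16 sums of 4 classes and 4 stages, among 10312 genes with 200 or more UMIs. The measure was Pearson's r of log2(CPM + 10). The sums share 4 libraries and differ widely in depth, so r is a description. Twist1 was closest to the collagen gene Col9a1 (r = 0.967), the Wnt receptor gene Fzd2 (0.962) and Sbk1 (0.956). Sox9 was closest to the N-cadherin gene Cdh2 (0.959), Epb41l3 (0.954) and Fzd2 (0.936), and Prrx2 to Twist1 (0.928), Bcl11a and Mpped2 (both 0.916). Tbx20 was closest to Lgals1 (0.899), Meg3 (0.880) and Gas1 (0.876).

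Snai1 was closest to Adamts2 (r = 0.933), Cox4i2 (0.924) and Tpm2 (0.918), and Snai2 to Papss2 (0.911), Frs2 (0.858) and Xylt1 (0.845). Zeb1 was closest to Ergic2 (0.965), Sdcbp (0.963) and Iscu (0.962), and these values were 0.711, 0.715 and 0.729 without classes under 30 cells. Zeb2 was closest to Camk2n1 (0.844), Ubap2l (0.826) and Cnpy2 (0.796), and Msx1 to Ehbp1l1 (0.781), Dock1 (0.762) and Rin2 (0.740). Without classes under 30 cells these were 0.822, 0.677 and 0.860 for Zeb2, and 0.651, 0.793 and 0.605 for Msx1. The values of Snai1 were then 0.909, 0.824 and 0.888. Msx2 had too few UMIs.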

How the data were processed

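The UMI counts were deposited by the authors as gene-by-barcode matrices, made with Cell Ranger 2.2 on mm10 per the submitters' processing notes, without normalization. All cells of a library entered, with no filter on genes, mitochondrial share or doublets. A cell that met the valve rule and another counted as valve. Cells past the valve or coronary limit without a pan-endothelial UMI (16 and 181 at E15, fewer elsewhere) were left out, and cells that met no rule were unclassed. A side without a UMI was set to 3 counts and compared only where the other side lay above that level. Shares compared across depths used cells thinned to 500 UMIs, leaving out 83 cells at E12 and 364 at E15. Doublets were scored against simulated pairs of cells and kept in the reported values.

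The members and lists were chosen with earlier results of these data known. All 10 members are named, with their 3 most alike genes and, of each pathway list, up to 4 genes past 2-fold with the most UMIs. The minimum of 30 cells and classes set on thinned cells were chosen after seeing the data. Python 3.11.15, numpy 2.4.6, scipy 1.17.1, pandas 2.3.3, scikit-learn 1.9.0 and matplotlib 3.10.9 were used, and the code was tested on simulated data. Alternatives were the methods' limits on UMIs, genes and mitochondrial share, with and without doublet removal, stricter or overlapping classes, another UMI minimum or fold, the mean of cells' CPM and other denominators.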

Additional observations from a re-analysis of the deposited data

Results flagged for a closer look

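Coronary-to-endocardial ratios of Msx1 lay on opposite sides of 1 at different stages: 0.194 at E12 (0.00478 to 1.15), 4.20 at E15 (2.36 to 7.87) and 6.03 at P2 (4.14 to 9.13). The E12 value rested on 1 UMI in 106 coronary cells, and its interval includes 1. The same held for Snai2, with ratios of 0.291 at E12 (0.00708 to 1.78, also on 1 coronary UMI) and 4.06 at P2 (2.43 to 7.35). For Twist1 the valve-to-endocardial ratio was 0.404 at E15 (0.0100 to 2.35, on 1 valve UMI in 49 cells) and 2.05 at P2 (0.880 to 4.85), and both intervals include 1. With 1 library per stage, none of these differences between stages was tested.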

How the results depend on the processing

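No paired analysis was possible because each stage was 1 library without replicates. In non-endothelial against endocardial cells, 6 to 8 members were higher and none lower at E12 and at E15 under the alternatives run. Counts of members past 2-fold that moved by over 1.5 times follow. Non-endothelial against endocardial cells in the adult had 2, and 1 under the methods' limits, with doublet removal or without each member's top cell, 5 with a minimum of 1 UMI, and 0 with a minimum of 50 UMIs or a fold of 3. Coronary against endocardial cells in the adult had 1, 3 at a fold of 1.5, and 2 under the methods' limits, with doublet removal, with the mean of cells' CPM or with classes set on thinned cells. The same comparison at E12 had 4, 1 with stricter classes and 2 with a minimum of 50 UMIs. Valve cells at P2 had 3, 1 with a minimum of 50 UMIs, 5 at a fold of 1.5 and 1 at a fold of 3. From E12 to E15 endocardial cells had 3, 5 with doublet removal, and 6 with the mean of cells' CPM or a fold of 1.5. From E15 to P2 they had 4, 2 with doublet removal or a minimum of 50 UMIs, and 1 with thinned classes. From P2 to the adult they had 1, 2 with the mean of cells' CPM or a fold of 1.5, and 0 with a minimum of 50 UMIs or thinned classes. The Twist1 ratio of valve to endocardial cells at E15 turned from 0.404 to 1.32 with doublet removal and 1.04 with the mean of cells' CPM. With no minimum on cells, 3 of 7 members were higher in valve cells at E12, 3 of 3 in non-endothelial cells at P2 and 0 of 1 in valve cells of the adult, and with thinned classes 3 of 6 in non-endothelial cells at P2. No share of all genes is given at these alternative settings, so their counts are not read as results on the members. Of 110 shares of cells with a UMI, 92 moved when cells were thinned to 500 UMIs. The causes of these moves were not tested, except that higher minimums and thinned classes left fewer UMIs to compare. The 12 valve cells of E12, the 32 non-endothelial and 69 endocardial cells of the adult, and the 2 non-endothelial cells of P2 limit those classes, and no value here measures the spread between animals.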

Other observations

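Cells outside the 4 classes also carried the members. At E12, 1502 cells met no rule, of which 221 (14.7%, 2.73% at 500 UMIs a cell) were collagen-positive. In these Twist1 was 8.09-fold and Sox9 8.08-fold higher than in the remaining unclassed cells. The doublet score marked 17.6% of them and 4.22% of the remaining ones.

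Small groups also stood out by level on few UMIs. The 12 valve cells of E12 held Twist1 at 236 CPM (86.4 to 513), from 6 UMIs in 2 cells, and Zeb2 at 314 CPM (136 to 619), from 8 UMIs in 4 cells. Of the 32 non-endothelial cells of the adult, the 20 collagen-positive ones held Tbx20 at 267 CPM (156 to 428), from 17 UMIs. They held Sox9 at 141 CPM (64.7 to 268), from 9 UMIs. These are the same UMIs as those given above for all 32 cells.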
